A study of Mus musculus with 16 samples.

Results

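The SR protein genes are described here as 10 genes taken by symbol from the GENCODE M21 annotation of the mouse genome (build GRCm38), out of 55536 annotated genes with a count. They were Srsf1, Srsf2, Srsf3, Srsf4, Srsf5, Srsf6, Srsf7, Srsf9, Srsf10 and Srsf11. The same genes held 85 of 141862 annotated transcripts. Of these 29 are coding, 15 are marked as targets of nonsense-mediated decay, 26 are marked as retaining an intron and 15 are processed transcripts without a reading frame. They also held 77 of 125520 splicing nodes, the pieces of a gene for which the authors deposited a percent spliced in (Psi).

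RNA was sequenced from OT-I Tg CD8+ T cells on a C57BL/6J background, whose transgenic receptor recognises the ovalbumin peptide SIINFEKL. The cells received Cas9 with a scrambled control guide RNA (Control gRNA) or with a guide against Tardbp (Tardbp gRNA), the gene of the RNA binding protein TDP-43, and were transferred into C57BL/6J mice. Every recipient was given antigen and the costimulatory antibodies anti-OX40 and anti-41BB, so both groups were costimulated, and spleen and lymph nodes were taken at day 4. There were 8 Control libraries and 8 Tardbp libraries, named C1 to C8 and T1 to T8. The donor OT-I mice lack Rag1 or Rag2 by the study's methods, no selection for edited cells is described, and ages are not given per sample. The cells of both groups were sorted as CD8+, and p-values measure the spread between these 8 libraries a group.

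SR proteins bind exon sequences through RNA recognition motifs and recruit the spliceosome through a tail rich in arginine and serine. Kinases of the SRPK and CLK families phosphorylate that tail and so set where the proteins sit in the cell. SR protein genes are known for unproductive splicing, in which a poison exon or a retained intron brings an early stop codon and the transcript is degraded or held in the nucleus, and for their part in the splicing that accompanies T cell activation.

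The unproductive forms that the counts below turn on can be seen in the annotated sequences, read from the GENCODE M21 transcripts. For 6 genes an extra exon sits inside an intron of the most abundant coding transcript, and each line below runs from the first base of that exon through the in-frame stop codon, which is in capitals. The whole extra exon is 456 bases in Srsf3, 460 in Srsf7, 268 in Srsf6, 207 in Srsf4, 109 in Srsf11 and 358 in Srsf9. The stop begins at base 32 of the exon in Srsf3, 26 in Srsf7, 150 in Srsf6, 113 in Srsf4, 21 in Srsf11 and 80 in Srsf9. The Srsf3 stretch lies at chr17:29039454-29039487 on the plus strand, and Srsf7 at chr17:80205054-80205081 on the minus strand. Srsf6 lies at chr2:162932815-162932966 (plus), Srsf4 at chr4:131884276-131884390 (plus), Srsf11 at chr3:158024209-158024231 (minus) and Srsf9 at chr5:115328347-115328428 (plus).
Srsf3-201: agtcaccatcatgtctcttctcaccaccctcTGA
Srsf7-203: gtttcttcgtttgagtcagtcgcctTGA
Srsf6-201: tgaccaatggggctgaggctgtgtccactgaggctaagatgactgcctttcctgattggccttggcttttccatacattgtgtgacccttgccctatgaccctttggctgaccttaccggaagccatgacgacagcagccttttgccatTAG
Srsf4-203: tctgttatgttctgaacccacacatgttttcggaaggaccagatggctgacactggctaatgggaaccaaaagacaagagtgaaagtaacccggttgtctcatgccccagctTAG
Srsf11-206: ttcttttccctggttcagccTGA
Srsf9-205: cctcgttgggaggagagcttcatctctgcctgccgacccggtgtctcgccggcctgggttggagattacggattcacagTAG

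Other introns are shown because the counts of Srsf1 and Srsf5 bear on them. The 196-base Srsf1 intron at chr11:88049216-88049411 (plus strand) is kept in the coding transcript Srsf1-201, whose stop codon, in capitals, falls at its base 52 (chr11:88049216-88049269). The 201-base Srsf5 intron at chr12:80947595-80947795 (plus strand) is kept in Srsf5-207 and is printed whole, with its first and last 2 bases, the splice sites, in capitals.
Srsf1-201 intron: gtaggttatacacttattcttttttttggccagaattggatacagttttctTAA
Srsf5-207 intron: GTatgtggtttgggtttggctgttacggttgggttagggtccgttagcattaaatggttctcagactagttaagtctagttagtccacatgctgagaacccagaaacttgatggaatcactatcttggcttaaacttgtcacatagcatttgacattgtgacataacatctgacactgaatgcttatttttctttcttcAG
Other transcripts of Srsf1 and Srsf2 are built differently. Srsf1-203, annotated as intron-retaining, and the decay transcript Srsf1-204 splice 881 bases out of the last exon of the main transcript. In Srsf2, Srsf2-202 and Srsf2-204 splice out 502 bases there. In Srsf1-204 the stop then lies 80 bases before the last exon junction, and in Srsf2-204 it lies 113 bases before it.

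The deposited counts summed to between 73649630 and 93893357 in the Control libraries and between 56016533 and 94801105 in the Tardbp libraries. Tardbp itself was at 172 to 207 CPM (counts per library total, scaled to the same sum and by the trimmed mean of M values) in Control and at 110 to 147 CPM in Tardbp, with no overlap (log2 fold change -0.51, SE 0.06), and its transcripts were reduced rather than absent. The RNA concentration recorded for each sample, for which no unit was given, was 34.9 to 197.1 in Control and 10.1 to 24.0 in Tardbp, so it separates the groups completely and its part in the results was not tested apart from a fit with it as a covariate. Libraries numbered 1 to 3 and 4 to 8 stood apart in both groups on the second principal component, with T8 between them. Of the marker lists, all 8 T cell markers were called higher in Tardbp by edgeR (adjusted p under 0.05), against 23.5% of all genes. Their summed level was 4817 to 5832 CPM in Control and 6699 to 8405 CPM in Tardbp. The summed red cell precursor level was 0.44 to 17.4 CPM in Control and 9.02 to 181 CPM in Tardbp, with T1, T4, T6 and T7 above every Control library. The summed level was 14.3 to 35.7 CPM against 19.0 to 78.9 CPM for the 6 myeloid markers, 102 to 326 CPM against 99.4 to 176 CPM for the 6 B cell markers and 1.38 to 9.90 CPM against 2.25 to 7.26 CPM for the 3 CD4 T cell markers; the part of these cells in the results was not tested except where the red cell libraries are left out.

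The 10 genes were all well expressed. Per length, in TPM (transcript counts per length, scaled to a fixed sum) computed from the deposited transcript counts, the mean level over the Control libraries was highest for Srsf7 (673 ± 54.9, SD, n = 8) and Srsf3 (590 ± 35.6), followed by Srsf5 (276 ± 40.1), Srsf11 (207 ± 28.0), Srsf6 (183 ± 17.6), Srsf1 (167 ± 16.7), Srsf10 (146 ± 10.1), Srsf2 (122 ± 50.5), Srsf4 (104 ± 12.2) and Srsf9 (56.3 ± 19.5). Every neighbouring pair in this order overlapped between libraries except Srsf3 and Srsf5, where the lowest Srsf3 value (516) stood above the highest Srsf5 value (351). Srsf9, the least abundant, was still above 87.9% of the genes with any count. In Tardbp the order was the same but for Srsf2, which came before Srsf1 and Srsf10.

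At the gene level 4 SR genes fell and 1 rose in Tardbp by edgeR's quasi-likelihood test (Benjamini-Hochberg adjusted p under 0.05 over 16650 genes). Over all genes tested 23.3% were called lower and 23.5% higher, and those shares would put about 2 of 10 genes in each direction. The median log2 fold change was -0.10 over the 10 genes and 0.05 over all genes. The calls were Srsf1, Srsf3, Srsf6 and Srsf10 lower and Srsf5 higher. Fewer expressing cells and less RNA per cell cannot be told apart in these bulk samples.

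**Figure D1:**
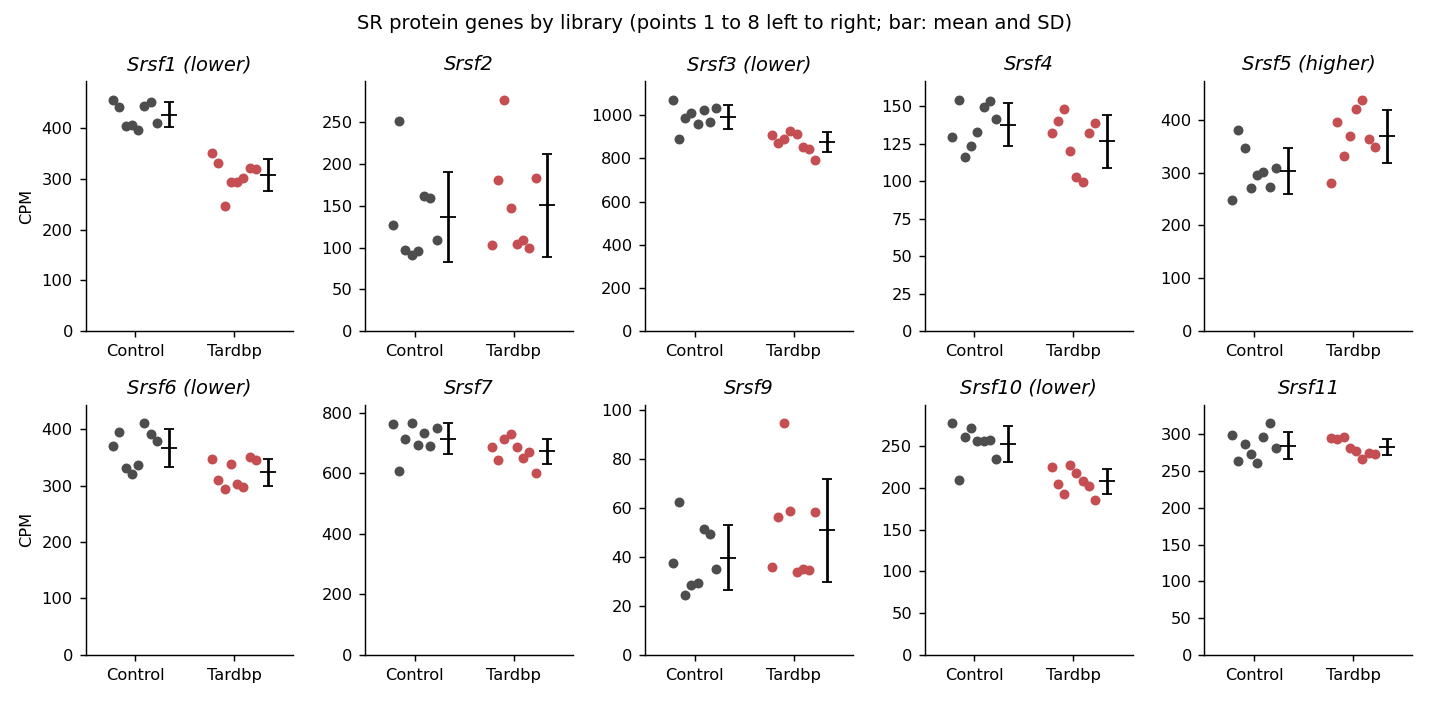
CPM of the 10 SR protein genes in each library, Control libraries 1 to 8 in grey and Tardbp libraries 1 to 8 in red, with the group mean and SD in black. The Srsf1 groups do not overlap (lowest Control 396, highest Tardbp 352), while Srsf2 and Srsf9 spread widely inside both groups.

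Srsf1, the founding member of the family and a regulator of splice site choice, changed most among the called genes. It was at 396, 427 and 457 CPM (lowest, median and highest) in Control and at 247, 311 and 352 CPM in Tardbp. Every Tardbp library was below every Control library. Groups without overlap, in either direction, were found for 16.9% of all genes tested. The log2 fold change was -0.47 (SE 0.06, edgeR adjusted p = 3e-06). It was -0.47 in libraries 4 to 8 alone (adjusted p = 1.4e-05) and -0.52 in libraries 1 to 3 alone (adjusted p = 0.052). With the RNA concentration as a covariate it was -0.39 (adjusted p = 0.0369), which left Srsf1 as the single SR gene called in that fit. Over all 16650 genes that fit called 1687 lower and 1010 higher.

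Srsf10, which acts as a splicing repressor when it is dephosphorylated, was at 209, 256 and 277 CPM in Control and 185, 207 and 227 CPM in Tardbp. Of the Tardbp libraries, 5 were below every Control library and none was above the Control median. The log2 fold change was -0.28 (SE 0.06, edgeR adjusted p = 0.00044). The difference was -0.30 in libraries 4 to 8, -0.29 in libraries 1 to 3 (adjusted p = 0.148) and -0.24 with the RNA concentration as a covariate (adjusted p = 0.2).

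Srsf3, the smallest of the family and a shuttling protein that also takes part in mRNA export, was at 887, 997 and 1072 CPM in Control. In Tardbp it was at 790, 879 and 928 CPM, with 4 libraries below every Control library and all 8 below the Control median. The log2 fold change was small, -0.18 (SE 0.04, edgeR adjusted p = 0.00121). The call was absent with the RNA concentration as a covariate (-0.20, adjusted p = 0.119) and in libraries 1 to 3 (-0.17, adjusted p = 0.212).

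Srsf6, a member with paired RNA recognition motifs, was at 320, 374 and 410 CPM in Control and at 295, 324 and 351 CPM in Tardbp. Here too 4 Tardbp libraries were below every Control library and the ranges overlapped. The difference was -0.18 on the log2 scale (SE 0.06; adjusted p = 0.0145 in edgeR) and did not pass in libraries 4 to 8 alone (-0.17, adjusted p = 0.0818), in libraries 1 to 3 alone (-0.24, adjusted p = 0.19) or with the covariate (-0.08, adjusted p = 0.699).

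Srsf5, closely related to Srsf4 and Srsf6, was the called gene that rose. It was at 248, 299 and 380 CPM in Control and at 281, 366 and 438 CPM in Tardbp, where 3 libraries were above every Control library. The log2 fold change was 0.28 (SE 0.09, edgeR adjusted p = 0.0164). Its size depended on the libraries. It was 0.42 in libraries 4 to 8 (adjusted p = 0.000405) and 0.02 in libraries 1 to 3 (adjusted p = 0.965), where C2 and C3 held the highest Control levels, and it was -0.03 with the RNA concentration as a covariate (adjusted p = 0.93). The difference between the sets of libraries was not tested.

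The other 5 genes were not called. Srsf7, a relative of Srsf3 with a zinc knuckle, was at 608 to 765 CPM in Control and 603 to 731 CPM in Tardbp (log2 fold change -0.08, 95% interval from the SE -0.18 to 0.01). Srsf4, a relative of Srsf5 and Srsf6, was at 116 to 155 CPM against 99.8 to 148 CPM (-0.12, interval -0.28 to 0.04). Srsf11 was the most even, at 262 to 315 CPM against 267 to 296 CPM (-0.01, interval -0.09 to 0.07). The groups overlap for all 3, and of these intervals only that of Srsf11 stays within 0.1 of 0.

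Srsf2 and Srsf9 had the widest spread inside the groups, so a change of moderate size in either direction could not be seen. Srsf2, the classical nuclear SR protein also called SC35, was at 91.5, 118 and 252 CPM in Control and 99.5, 128 and 277 CPM in Tardbp (log2 fold change 0.14, interval -0.33 to 0.60). Srsf9, the closest relative of Srsf1, was at 24.6, 36.2 and 62.4 CPM in Control and 33.7, 46.0 and 94.5 CPM in Tardbp (0.36, interval -0.09 to 0.81). The highest libraries were the same in both genes, C2 in Control and T3 in Tardbp. All of Srsf2 lies inside Mettl23, a coding gene on the opposite strand at a mean of 109 CPM, and a library kit that does not mark strand cannot separate the reads of both. Mettl23 was at 85.4 to 104 CPM in Control and 115 to 128 CPM in Tardbp, and its part in the Srsf2 level was not tested.

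**Figure D2:**
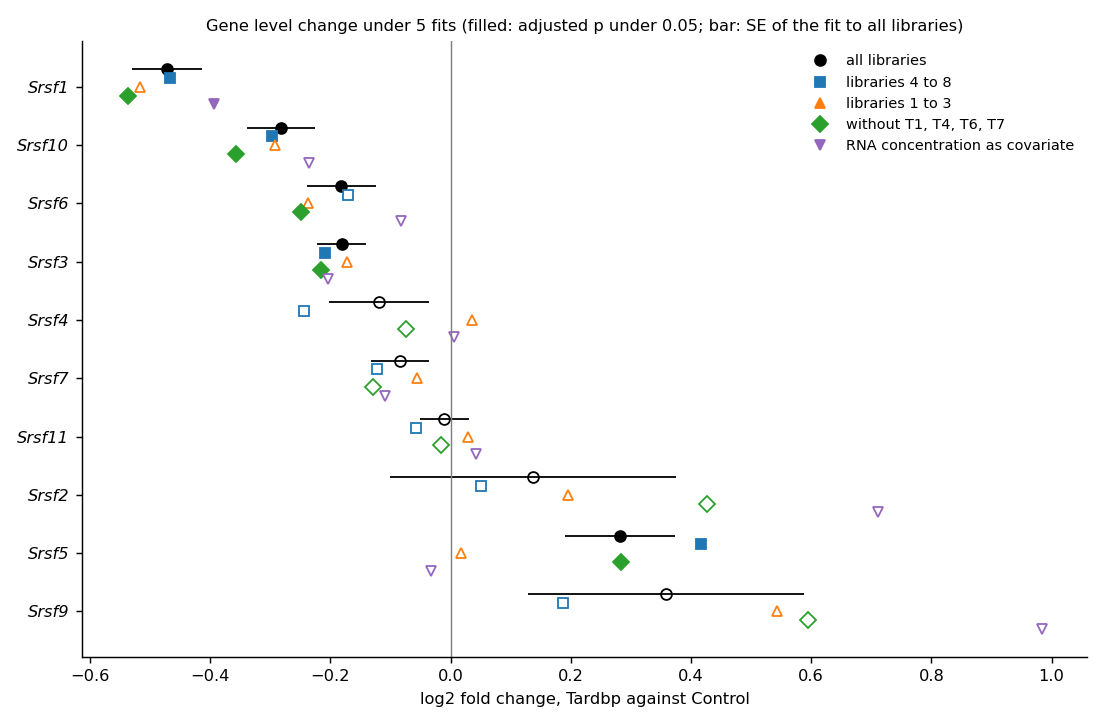
Log2 fold change of each SR gene (Tardbp against Control) under 5 fits, filled where the adjusted p is under 0.05, with the SE of the fit to all libraries as a bar. Srsf1 lies between -0.54 and -0.39 in all 5, Srsf5 runs from -0.03 to 0.42, and Srsf9 from 0.19 to 0.98 without a call.

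The sequences shown above raise the question of how much of each gene's RNA was in unproductive form. For each gene the counts of decay and intron-retaining transcripts, each divided by transcript length, were set against those of the coding transcripts, and the log2 ratio was tested with limma. The ratio could be tested for 9 SR genes and 5767 genes in all; Srsf10 has no transcript annotated as decay or intron-retaining. In these cells the ratio rose over the whole transcriptome in Tardbp, with a median change of 0.31 and a higher ratio in 72.3% of tested genes. Of all tested genes 11.2% were called higher and 0.468% lower, and 1 of 9 SR genes, Srsf1, was called higher and none lower at an adjusted p under 0.05. The median over the 9 SR genes was 0.23, below that of all genes, and 3 of the 9 were above the median of all genes.

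**Figure D3:**
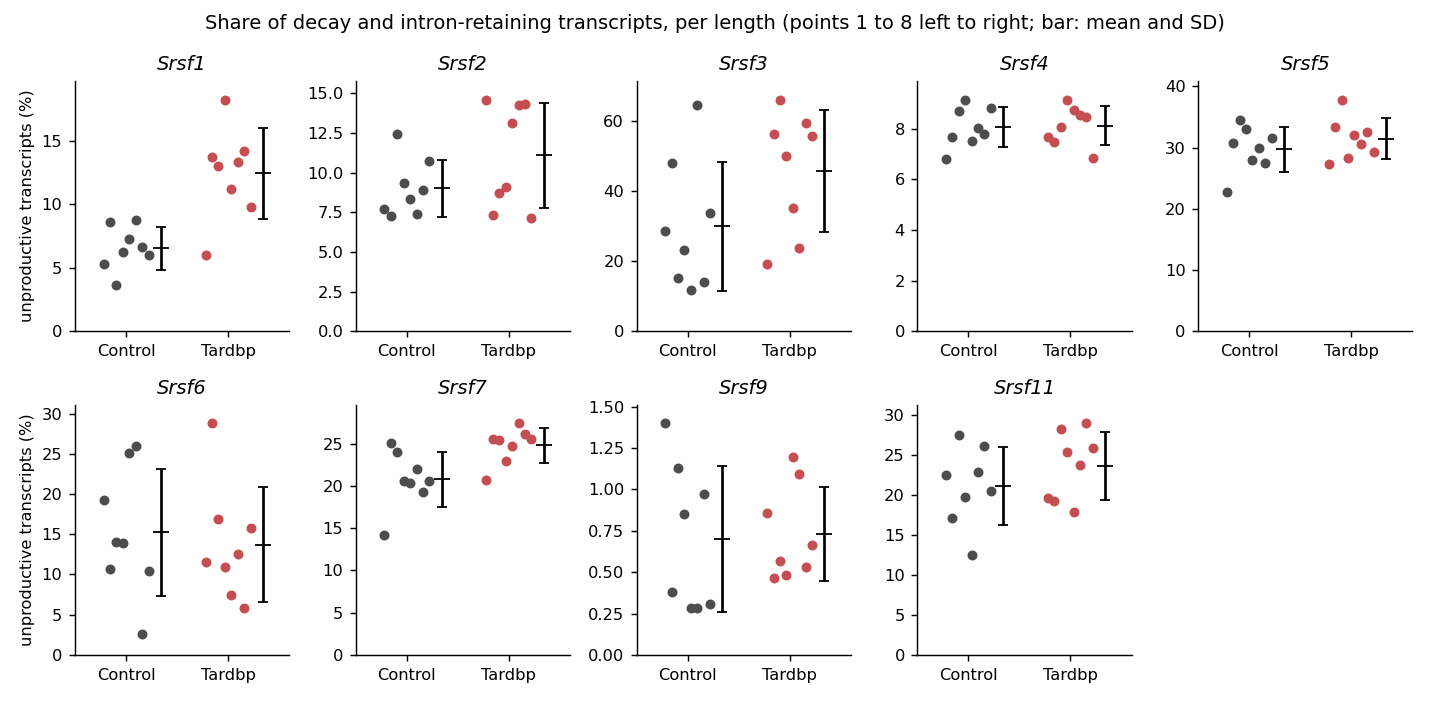
Percent of decay and intron-retaining transcripts among coding and unproductive transcripts, each divided by length, for 9 SR genes in each library, with the group mean and SD. Srsf1 is at 3.61 to 8.76% in Control and 6.03 to 18.3% in Tardbp, and Srsf3 spans 11.6 to 64.6% and 19.2 to 66.1%.

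For Srsf1 the unproductive part was at 3.61, 6.43 and 8.76% in Control and 6.03, 13.2 and 18.3% in Tardbp, with 7 Tardbp libraries above every Control library and T1 inside the Control range. The log2 change of the ratio was 1.01 (SE 0.25, limma adjusted p = 0.0156), which is 0.70 above the median of all genes. The unproductive transcripts are short and few, so their share per length is larger than their share of counts. Those annotated as decay were at a mean of 1.68 CPM in Control and 2.31 CPM in Tardbp. Those annotated as retaining an intron were at 3.72 and 5.18 CPM, against 430 and 297 CPM for the coding transcripts. Nearly all of the unproductive counts came from Srsf1-203 (1.62 to 5.97 CPM against 2.54 to 7.73 CPM), which carries the 881-base gap named above and is annotated as intron-retaining, and from Srsf1-204. Neither was called by itself in edgeR. Srsf1-203 and Srsf1-206, the transcripts annotated as intron-retaining, keep no whole intron of the main transcript Srsf1-205. Srsf1-201, which does keep one, is annotated as coding and was counted there. With intron-retaining transcripts only, limma made the call (1.04, adjusted p = 0.0167), where 869 of 5117 genes were called in either direction. With decay transcripts only it did not (0.90, adjusted p = 0.292), and 15 of 2021 genes were called there. Nor was the call made with the RNA concentration as a covariate (1.24, adjusted p = 0.576). The median of all genes was 0.07 in that limma fit, no gene of 5767 was called and 461 had an unadjusted p under 0.05. In libraries 1 to 3 the Srsf1 change was 0.98 (adjusted p = 0.541), and 2 of 5767 genes were called. Without T1, T4, T6 and T7 the change was 0.99 (adjusted p = 0.051), and 302 of 5767 genes were called. In libraries 4 to 8 it was 1.02 (adjusted p = 0.0473), so the size of the change stayed between 0.90 and 1.24 in these fits.

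Srsf3 had a change of ratio of the same size without a call. Its unproductive part was at 11.6, 25.9 and 64.6% in Control and 19.2, 52.9 and 66.1% in Tardbp, and 6 Tardbp libraries were above the Control median. The log2 change was 1.11 (SE 0.58, limma adjusted p = 0.243). C6, at 64.6%, stood above all but T3, and this spread inside the groups is larger than the difference. Srsf7 went from 14.2, 20.6 and 25.0% to 20.7, 25.5 and 27.4%, with all 8 Tardbp libraries above the Control median (0.34, SE 0.15, adjusted p = 0.162), close to the median of all genes. For the other members the changes were 0.30 for Srsf2, 0.23 for Srsf9, 0.22 for Srsf11, 0.12 for Srsf5, 0.01 for Srsf4 and -0.08 for Srsf6, with SE from 0.12 to 0.49 and adjusted p from 0.421 to 0.958. Unproductive transcripts were the smallest part in Srsf9 (0.282 to 1.40% in Control), whereas Srsf5 held 22.7 to 34.4% in Control. When processed transcripts were added to the unproductive class, Srsf10 could be tested and rose by 0.53 (SE 0.16, limma adjusted p = 0.0384). For Srsf10 that class holds processed transcripts only. In the same fit the median over all genes was 0.30, and 757 of 6831 genes were called higher.

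Single transcripts show which forms carried the gene counts. Of the 85 transcripts 66 passed the filter on low counts, and 7 were called by edgeR, 4 lower and 3 higher. Over all 40897 transcripts tested 8.14% were called lower and 8.5% higher. The 4 lower transcripts were all coding, and the 3 higher ones all belong to Srsf5.

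**Figure D4:**
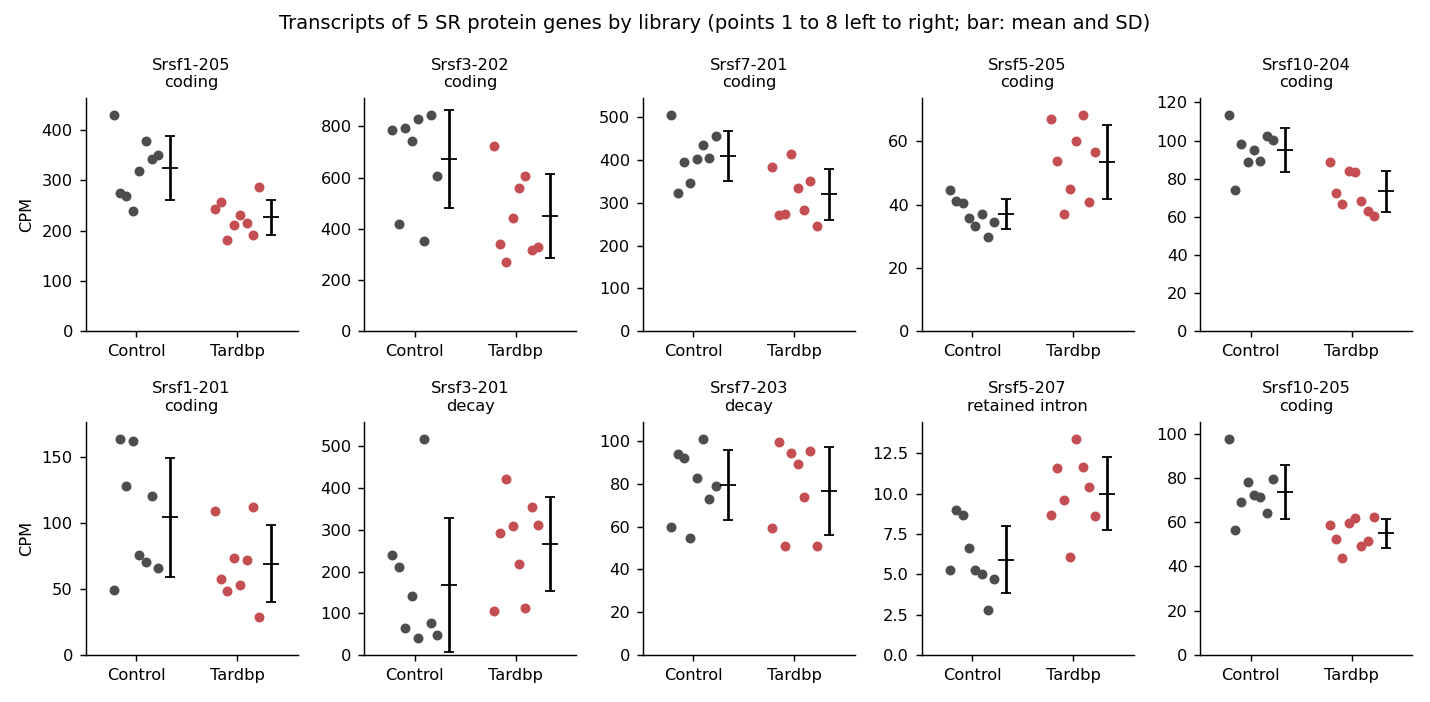
CPM of 10 transcripts of 5 SR genes in each library, by gene from left to right, with the group mean and SD in black and the annotated class in each title. Srsf1-205, Srsf7-201, Srsf10-204 and Srsf10-205 were called lower and Srsf5-205 and Srsf5-207 higher, while Srsf3-201 and Srsf3-202 vary more than 2-fold inside each group.

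Srsf1-205, the full coding form with 74.3% of the gene's counts in Control and 74.7% in Tardbp, was at 239, 331 and 430 CPM against 181, 223 and 287 CPM (log2 fold change -0.52, SE 0.12, edgeR adjusted p = 0.00678). Srsf1-201, the form with the 196-base intron printed above, was at 49.3, 98.2 and 164 CPM against 29.1, 64.8 and 112 CPM (-0.59, SE 0.30, adjusted p = 0.212). Their shares of the gene stayed within 2 percentage points of Control. The Srsf10 transcripts called lower were the coding forms Srsf10-204 (74.1, 96.6 and 113 CPM against 60.3, 70.4 and 88.9 CPM, -0.37, adjusted p = 0.0127) and Srsf10-205 (56.4, 71.9 and 97.7 CPM against 43.8, 55.7 and 62.2 CPM, -0.42, adjusted p = 0.0093), which differ in their last exon. Both ranges overlapped between the groups. A further coding form, Srsf10-202, with 25.0% of the counts in Control, was at 41.4, 66.3 and 82.0 CPM against 42.3, 53.8 and 58.8 CPM and was not called (-0.30, SE 0.12, adjusted p = 0.109), with no Tardbp library above the Control median.

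Srsf7-201, the main coding form of a gene whose total was not called, was at 322, 404 and 504 CPM in Control and 246, 308 and 414 CPM in Tardbp (-0.35, SE 0.11, edgeR adjusted p = 0.0433). The change was about as large but not called without the filter (-0.36, adjusted p = 0.0918), with the replicate block (-0.36, adjusted p = 0.0633) and in libraries 4 to 8 (-0.36, adjusted p = 0.13). Its share of the gene's counts went from 55.9 to 47.6% (adjusted p = 0.128), and 4 Tardbp libraries were below every Control share. The poison exon form Srsf7-203 was at 54.6, 80.8 and 101 CPM against 50.8, 81.8 and 99.6 CPM (-0.05, SE 0.17, adjusted p = 0.892). The intron-retaining Srsf7-207 was at 13.7, 18.2 and 92.5 CPM against 26.6, 41.3 and 116 CPM (1.02, SE 0.45, adjusted p = 0.143). The poison exon form differed by less than its spread between libraries.

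For Srsf3 the poison exon form and the intron-retaining Srsf3-204 took a large part of the counts. Srsf3-201 was at 41.4, 109 and 518 CPM in Control and 105, 301 and 421 CPM in Tardbp (0.66, SE 0.49, edgeR adjusted p = 0.424). The coding form Srsf3-202 was at 352, 766 and 844 CPM in Control and 271, 391 and 723 CPM in Tardbp (-0.58, SE 0.23, adjusted p = 0.102; DESeq2 gave -0.62 with an adjusted p = 0.0304). The mean share of counts went from 16.4 ± 15.2% to 30.9 ± 13.7% for Srsf3-201 and from 66.5 ± 18.9% to 51.5 ± 17.3% for Srsf3-202 (SD, n = 8 each). The directions are opposite, and limma on the shares called neither (adjusted p = 0.315 and 0.435).

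The Srsf5 transcripts called higher were the coding form Srsf5-205 and 2 minor forms. Srsf5-205 was at 29.6, 36.5 and 44.5 CPM in Control and 37.1, 55.2 and 68.3 CPM in Tardbp (0.53, SE 0.13, edgeR adjusted p = 0.00929). Srsf5-207, which keeps the 201-base intron printed above and a second one of 1229 bases, was at 2.78, 5.26 and 8.97 CPM against 6.08, 10.02 and 13.4 CPM (0.76, SE 0.22, adjusted p = 0.026; 0.0563 with the replicate block). Srsf5-211, a processed transcript, was at 0.387 to 0.734 CPM against 0.555 to 1.23 CPM (0.60, adjusted p = 0.039), and its call was absent without the filter (adjusted p = 0.11), with the replicate block (0.131) and in libraries 4 to 8 (0.245). The Srsf5 form with the most counts was not called. Counts are not divided by length here, and Srsf5-212 has 2720 bases against 1491 in the coding Srsf5-203. Srsf5-212 keeps the 1229-base intron alone, held 38.3% of the gene's counts in Control and 38.9% in Tardbp, and was at 79.2, 116 and 147 CPM against 92.7, 143 and 168 CPM, with 7 Tardbp libraries above the Control median (0.26, SE 0.13, adjusted p = 0.208).

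The other poison exon forms were minor. Srsf6-201 was at 3.50 to 38.9 CPM against 7.26 to 27.3 CPM (-0.07, SE 0.45) and Srsf11-206 at 3.72 to 26.5 CPM against 4.68 to 22.7 CPM (-0.10, SE 0.40). Srsf4-203 was at 0.844 to 2.43 CPM against 1.25 to 2.31 CPM (0.11, SE 0.22) and Srsf9-205 under 1 CPM in every library. In each case the groups overlapped and edgeR made no call. Single coding forms dominated Srsf9 (Srsf9-201, 99.1 and 99.0% of counts), Srsf4 (Srsf4-202, 95.5 and 95.8%), Srsf2 (Srsf2-201, 91.5 and 89.4%) and Srsf6 (Srsf6-203, 90.1 and 91.9%), whereas Srsf11 split its counts mainly over Srsf11-202 (39.6 and 38.1%) and Srsf11-204 (36.6 and 32.2%).

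A change in the mix of transcripts was called in none of the 10 genes. The rule, limma on each transcript's share of its gene, asked for a difference above 0.1 and an adjusted p under 0.05, and it called 1.77% of 8323 genes. Of 66 SR transcripts 11 had an unadjusted p under 0.05 and 2, Srsf3-201 and Srsf3-202, a difference over 0.1. These counts are given without the share over all transcripts, so they are not a result about the SR genes. The lowest adjusted p belonged to Srsf1-203 (0.0715, a difference of 0.82 percentage points).

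The deposited Psi table, which gives 1 fraction per group and node without replicate values, showed little movement in the nodes it lists for these genes. No SR node differed by more than 0.1 between the groups, against 4.7% of all nodes, and 2 of 77 differed by more than 0.05, against 9.65% of all nodes. The median size of the difference was 0.00105 over the SR nodes and 0.00545 over all nodes. Of the 77 SR nodes 57 (74.0%) differed by less than 0.01, against 61.7% of all nodes. All nodes were counted without a minimum of reads, and the part of expression level and read depth in this contrast was not tested. No test can be made on values that the authors pooled.

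**Figure D5:**
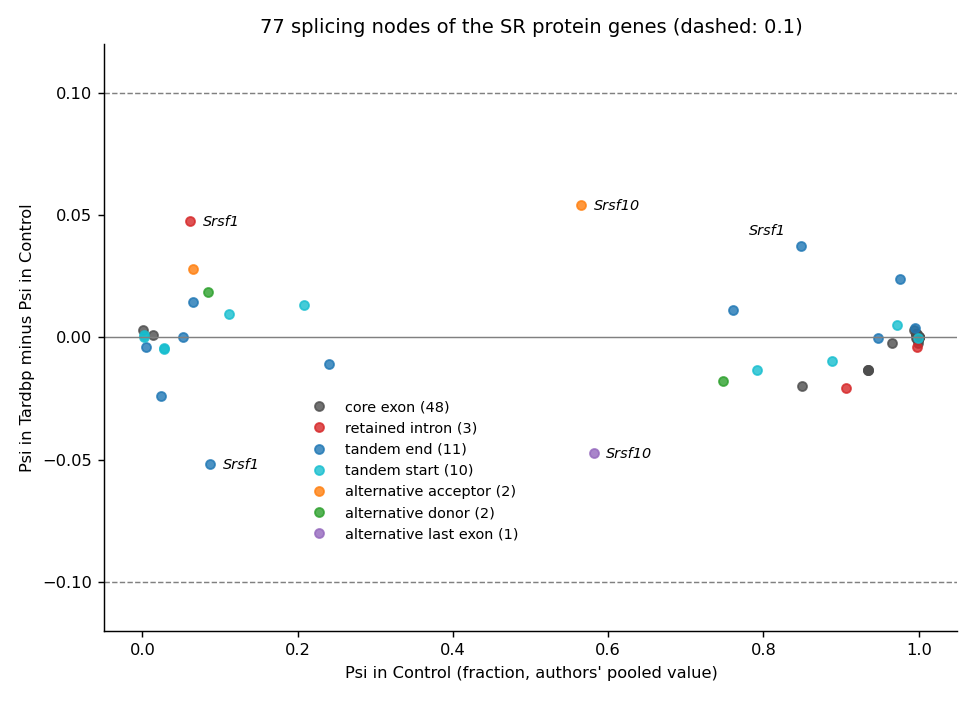
Psi in Control and the difference (Psi in Tardbp minus Psi in Control, as fractions) of 77 splicing nodes of the SR genes, coloured by node type. All lie inside the dashed lines at 0.1, and the nodes farthest from 0 belong to Srsf10 and Srsf1.

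The nodes that moved most were in Srsf10 and Srsf1. In Srsf10 an alternative acceptor of 3 bases (chr4:135863523-135863525) went from 0.565 to 0.620 and the alternative last exon chr4:135863729-135865815 from 0.581 to 0.534. In Srsf1 the node of the 196-base intron went from 0.0610 to 0.109, and a tandem 3′ end node (chr11:88049977-88050410) from 0.0870 to 0.0352. The rise of the intron node stands beside the Srsf1-201 transcript count, which keeps the same intron and did not gain a share of the gene (24.3% in Control, 22.6% in Tardbp).

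Among core exons the largest difference was in Srsf7, where the 36-base core exon chr17:80202169-80202204 went from 0.850 to 0.830 and the 3 core exons before it from 0.934 to 0.921. The extra exon of Srsf6 printed above has a node for its shorter form (chr2:162932815-162932979), which went from 0.000867 to 0.00381. The extra Srsf2 exon (chr11:116851648-116851751) stayed near 0.01 in both groups (0.0137 and 0.0148). Of the other 2 retained intron nodes, that of Srsf2 (chr11:116850354-116850855, the 502 bases named above) went from 0.907 to 0.886 and a second one in Srsf1 from 0.998 to 0.994. The Psi table lists no node for the printed poison exons of Srsf3, Srsf7, Srsf4, Srsf11 and Srsf9. It also lists none for the Srsf5 introns of 201 and 1229 bases. The counts of these forms above therefore have no second readout here.

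Among the kinases of SR proteins some rose. Of 8 kinase genes 7 could be tested, 3 rose and none was called lower by edgeR, against 23.5% higher and 23.3% lower over all genes, with a median log2 fold change of 0.17. Srpk2, which phosphorylates SR proteins in the cytoplasm, was at 35.0, 48.8 and 55.8 CPM in Control and 59.9, 66.6 and 73.4 CPM in Tardbp, without overlap (0.48, SE 0.08, edgeR adjusted p = 9.6e-05). Clk1, a nuclear kinase that releases SR proteins from speckles, was at 87.0, 125 and 149 CPM against 144, 175 and 184 CPM (0.45, SE 0.09, adjusted p = 0.000555), and Clk2 rose by 0.20 (adjusted p = 0.0351).

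Of 23 SR-related proteins, which share the arginine and serine tail or carry SR proteins, 13 fell and 4 rose, beside the same 23.3% lower and 23.5% higher over all genes, with a median log2 fold change of -0.17. Tra2b, a splicing activator of the related Transformer 2 family, fell from 337, 483 and 520 CPM to 182, 254 and 314 CPM (-0.85, SE 0.10, edgeR adjusted p = 1.8e-06). Its relative Tra2a fell by 0.58 on the log2 scale and Tnpo3, the importin that brings SR proteins into the nucleus, by 0.57 (adjusted p = 2.0e-06 and 1.4e-07). None of the 3 overlapped between the groups, beside 16.9% of all genes without overlap in either direction. The 3 were named for having the largest called changes in the list.

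Among 16 nonsense-mediated decay factors 6 fell and 2 rose, with a median of -0.05, against 23.3% lower and 23.5% higher over all genes. Upf1, the helicase at the centre of the pathway, was at 37.4, 42.0 and 78.5 CPM in Control and 24.7, 31.1 and 52.9 CPM in Tardbp (-0.55, SE 0.18, edgeR adjusted p = 0.0189). Smg8 fell by 0.37 on the log2 scale. The cell cycle list moved with the groups as well: 21 of 22 genes fell, with a median of -0.61, and its summed level was 14383 to 15924 CPM in Control and 8814 to 11207 CPM in Tardbp. Its part in the levels of the SR genes was not tested.

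The 5 genes whose levels most resembled the mean of the 10 SR genes across the 16 libraries, each group centred on its own mean, were Pabpn1, Hras, Nsmce4a, Phf10 and Ap1ar, with Pearson r from 0.96 to 0.98. This mean was led by the members with the widest spread. Srsf9 and Srsf2 correlated with it at 0.97 and 0.94, Srsf4 at 0.78, Srsf1 at 0.03, and Srsf10 at -0.46. The points share their libraries and depth, and no p is given.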

How the data were processed

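The authors aligned paired reads of SMART-Seq v4 libraries, a kit that does not mark strand, to the mouse genome with HISAT2 2.1.0 and counted them with StringTie 2.1.0; per the labels SAMtools 1.9, R 4.0.5, DESeq2 1.30.1 and build mm10 were also used. The authors deposited estimated counts per gene and per transcript, which are whole numbers, and for each library a count of total reads, which was lower than the sum of the estimated counts, and Psi as a fraction per group, pooled over replicates. How StringTie divides reads between transcripts that share exons can move counts between the forms of a gene. The authors' own comparison columns in the Psi table (a difference and a probability) were not used, so the probability criterion set for naming nodes was not applied. Of the columns of each count table, 10 that correspond to none of the samples were left aside, and 26345 lines that name no annotated gene, 0.0836 to 0.132% of counts, were left out.

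Genes and transcripts were tested with edgeR 4.0.16 (filterByExpr with a minimum count of 10, trimmed mean of M values, quasi-likelihood F test of Tardbp gRNA against Control gRNA, Benjamini-Hochberg) in R 4.3.3, after checks on simulated data. The SE of a fold change is its size divided by the square root of F. Ratios and shares were tested with limma 3.58.1. The ratio is log2 of unproductive over coding counts per kilobase with 0.5 added to each, for genes with a mean of at least 50 counts in both classes together and 10 unproductive counts. Alternatives were DESeq2 1.42.0, other scaling, no filter, covariates, subsets of libraries and other classes. Transcripts named in the text held at least 5% of their gene's counts in either group or were called; other transcripts were named for the sequences shown or for what a called ratio contains, after their values were seen. From each of 3 lists at most 3 called genes with the largest change were named. Likeness was ranked among genes whose log2 CPM averaged 3 or more. The members and lists were chosen with earlier results of these data known. Intervals are the estimate and SE at the 95% level.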

Additional observations from a re-analysis of the deposited data

Results flagged for a closer look

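Of 102 groups of 8 values examined (gene levels, unproductive percentages and transcript levels), 8 had a library far from the other 7 by Dixon's test, and chance gives about 5.1 at 1 in 20. In Control, C2 stood apart for Srsf2 at 252 CPM (the others were 91.5 to 162). In Tardbp, T3 stood apart for Srsf2 at 277 CPM (others 99.5 to 183), for Srsf9 at 94.5 CPM (others 33.7 to 58.9) and for its main transcript Srsf9-201 at 89.7 CPM (others 32.9 to 59.6). In Control, C6 stood apart for the poison exon form Srsf3-201 at 518 CPM (others 41.4 to 239) and for Srsf11-201 at 94.3 CPM (others 8.93 to 39.6). In Control, C4 stood apart for Srsf7-205 at 95.8 CPM (others 43.5 to 61.4) and for Srsf7-207 at 92.5 CPM (others 13.7 to 27.6). None of these forms or genes was called between the groups, and the cause of the distances was not tested.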

How the results depend on the processing

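The 4 lower and 1 higher SR genes were counted alike with DESeq2, size factors of the DESeq2 kind, no filter, the letter M or F as a covariate, the replicate block (4 and 1), and without the 4 Tardbp libraries high in red cell markers, an alternative chosen after seeing the data. With the RNA concentration as a covariate the counts were 1 and 0. Over all 16650 genes that fit called 1687 lower and 1010 higher. In libraries 1 to 3 alone (3 against 3 libraries) the counts were 0 and 0, and 2 of the 10 had an unadjusted p under 0.05 in edgeR. There 1140 of all 16871 genes were called lower and 556 higher, and 4697 had an unadjusted p under 0.05. With a minimum log2 fold change of 0.5 the counts of SR genes were 0 and 0. SR transcripts called went from 7 to 12 with DESeq2 and to 4 with the replicate block. Over all 40897 transcripts tested, calls went from 6805 to 9378 with DESeq2 and to 5412 with the replicate block. The single called ratio became 2 with processed transcripts added. It became 0 with decay transcripts only, with the RNA concentration as a covariate, in libraries 1 to 3, and without the red cell libraries. There the Srsf1 change itself was 0.90 to 1.24 (1.01 as reported). Over all genes those fits called, in the same order, 15 of 2021, 0 of 5767, 2 of 5767 and 302 of 5767. The fit as reported called 673 of 5767. Psi nodes went from 0 to 2 at a difference of 0.05; higher probabilities were not run, since no node passed 0.1. Directions turned for genes not called: with the covariate Srsf4 (0.0055) and Srsf11 (0.042), and in libraries 1 to 3 Srsf4 (0.036) and Srsf11 (0.029). Srsf5, called higher, turned with the covariate (-0.033). Of the ratios that were not called, the covariate turned Srsf2 (-0.10), Srsf4 (-0.26), Srsf5 (-0.35) and Srsf7 (-0.020). Leaving out the red cell libraries turned Srsf2 (-0.0073), Srsf4 (-0.053) and Srsf6 (0.32). Counts not divided by length (-0.11) and intron-retaining transcripts only (-0.40) turned Srsf4. Decay transcripts only turned Srsf6 (0.43), and libraries 1 to 3 turned Srsf6 (0.41) and Srsf9 (-0.48). The cause was not tested beyond the smaller number of samples in the subsets. Same-numbered libraries of the groups correlated at -0.0048 to 0.16, 2 of 8 over 0.1, and 2 of 8 Control libraries correlated best with their own number. These values show little likeness by number, and the main fits used no pairing. They cannot settle whether the libraries were paired by design.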

Other observations

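Some SR genes varied together inside the groups. Over the 8 Control libraries the log2 CPM of Srsf2 and Srsf9 correlated with r = 0.96 (exact permutation p = 0.00025, adjusted p = 0.0223 over 90 relations) and rho = 0.93 (exact p = 0.0022, adjusted p = 0.067), and r was 0.94 without the 2 libraries farthest from the median of Srsf2. Over the 8 Tardbp libraries r was 0.98 (exact permutation p = 0.0025, adjusted p = 0.0552) and rho 0.81 (exact p = 0.0218, adjusted p = 0.196), with r = 0.94 without 2 libraries. Srsf3 and Srsf7 correlated with r = 0.94 in Control (exact permutation p = 0.0011, adjusted p = 0.0491; rho = 0.83, exact p = 0.0154, adjusted p = 0.196; r = 0.85 without 2 libraries) and with r = 0.88 in Tardbp (exact p = 0.0047, adjusted p = 0.0778; rho = 0.81, exact p = 0.0218, adjusted p = 0.196; r = 0.59 without 2 libraries). All 45 pairs were computed in each group, and 2 of the 90 relations passed for r and 0 for rho after adjustment. These pairs were singled out after their values were seen. The main coding transcripts of Srsf9 and Srsf2 hold 56.2 and 49.97% G and C and those of Srsf3 and Srsf7 both 40.0%, and the part of base composition in these relations was not tested.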
